A study of Mus musculus with 2 samples.

Results

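The 43 genes described here build and run the primary cilium of mouse retinal cells. They were chosen by symbol as a fixed list of intraflagellar transport (IFT), BBSome, ciliary motor and transition zone genes, and all 43 were found among the 32285 genes in the files. They fall into 7 roles: 11 genes of the IFT-B complex, 3 of IFT-A, 10 of the BBSome and its assembly, 3 of dynein-2, 4 of kinesin-2, 8 of the transition zone, and 4 others (Tulp1 and Tulp3 of the Tubby family, Lca5, which encodes lebercilin, and the axonemal gene Ccdc39). Each of the 43 had at least 1 UMI (unique molecular identifier, a tag that marks 1 captured RNA molecule) in each library. The rule for a member uses no measured value, but the list was drawn up with earlier results of these data known.

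Dissociated retinas of mice at postnatal day 7 (P7) were profiled by droplet single-cell RNA sequencing of transcript 3' ends. The control library came from Mettl14 fl/fl or fl/wt mice, so the controls carry at least 1 floxed allele and, as labelled, no Cre. The conditional knockout library (Mettl14-cKO) came from Mettl14 fl/fl mice that carry an Egfp/Cre transgene, whose promoter is active in retinal progenitors and bipolar cells. Cells that do not descend from Cre-active progenitors, such as microglia and vessel cells, keep the gene. The number of animals behind each library is not given in the sources used here. Mettl14 encodes a subunit of the enzyme that places N6-methyladenosine on RNA. The comparison asks how the levels of these genes differ between the genotypes in each retinal cell class.

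The photoreceptor outer segment is a modified primary cilium. Proteins for it are made in the inner segment and pass through the connecting cilium, which corresponds to the transition zone, carried by IFT trains that kinesin-2 moves towards the tip and dynein-2 moves back. The BBSome is a coat that carries membrane proteins along the cilium, and loss of many of these genes is known to cause retinal degeneration. At P7 mouse rods are building their outer segments.

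The libraries held 13287 barcodes and 55921787 UMIs (control) and 15319 barcodes and 59856468 UMIs (Mettl14-cKO). Barcodes with at least 1000 UMIs were used: 11426 and 13502, with medians of 3487 and 3212 UMIs. Only 1 library was made per genotype. No test across animals was therefore possible, cells are not replicates, and every interval given is a 95% interval that covers counting error only. Over all kept barcodes Mettl14 itself stood at 27.1 CPM (UMIs per 1000000 UMIs) in control and 14.5 in Mettl14-cKO cells, a ratio of 0.534 (0.490 to 0.581), and at 34.5 and 17.2 CPM in rod-gated barcodes. The deleted part of the gene is not given in the sources used here, so these 3' reads may lie outside it. The sequences of 39 barcodes occurred in both libraries.

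Cell classes were gated by markers: a barcode joined a class when at least 3 of its markers had a UMI and it had at least 2 more markers with a UMI than for any other class. No marker is one of the 43 genes. The rod gate held 4921 control and 3788 Mettl14-cKO barcodes, the bipolar gate 1787 and 1713, the amacrine gate 1041 and 1746, the Müller glia gate 1148 and 1770, and the ganglion cell gate 154 and 262. The cone gate held only 28 and 54, and 2211 and 3791 barcodes stayed ungated. In the control library 449 rod-gated barcodes lay on the gate's limit and 403 just outside it, against 527 and 484 in the Mettl14-cKO library. When both libraries were clustered together, rods separated by library: 2 rod clusters held 2202 and 1136 control barcodes but 82 and 117 Mettl14-cKO ones, and another held 47 control and 1836 Mettl14-cKO barcodes. Müller glia separated in the same way, with 939 control and 25 Mettl14-cKO barcodes in one cluster and 106 and 1626 in the other.

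Because RFX transcription factors are known to drive ciliary genes through a site called the X-box, the bases before the transcription start were read for the members. RefSeq promoters (GRCm38.p6) matched 38 of the 43 genes by symbol; Ift122, Ift81, Dync2li1, Tmem67 and Ift80 were not matched. The 250 bases before the start were searched on both strands for the letters GTTGCC, the core of an X-box arm, and for the full 2-arm site, GTTNCC and GGNAAC with 1 to 3 bases between, which can contain the shorter motif. The 4 stretches below are shown because they belong to the member with the lowest ratio in rods (Dynlrb2) and to the 3 members with a full site (Bbs7, Ift57 and Mks1), all 4 of which were lower in Mettl14-cKO rods. Capitals mark the matched letters, and each is read 5' to 3' along the gene's strand.
Dynlrb2, chr8:116504894-116504973, + strand: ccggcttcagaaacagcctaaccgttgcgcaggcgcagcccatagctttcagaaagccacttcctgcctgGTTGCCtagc
Bbs7, chr3:36613478-36613557, - strand: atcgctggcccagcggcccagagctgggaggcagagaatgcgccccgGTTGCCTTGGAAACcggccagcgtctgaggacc
Ift57, chr16:49699167-49699246, + strand: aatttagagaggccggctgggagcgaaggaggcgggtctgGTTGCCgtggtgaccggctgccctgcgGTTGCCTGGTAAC
Mks1, chr11:87853135-87853214, + strand: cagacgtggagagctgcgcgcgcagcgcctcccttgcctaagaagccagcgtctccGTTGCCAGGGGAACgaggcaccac
GTTGCC was present before 8 of the 38 members (21.1%: Bbs7, Dynlrb2, Ift140, Ift27, Ift57, Kif17, Kif3a and Mks1) and before 11.8% of all 27025 genes with a promoter sequence. Of the 23 matched members called lower in rods it was present in 4, and of the other 15 in 4. The full site was present in 3 of 38 members (7.89%) and in 0.766% of all genes. That of Ift57 lies before the RefSeq start used here. In GENCODE the Ift57 gene begins at 49699233, so this site, which ends at 49699246, lies within the gene as annotated there. The letters TAATCC, bound by the photoreceptor factor CRX, were present before Bbs1 and Rpgrip1, 2 of 38 members (5.26%), and before 7.21% of all genes. These are letter matches in a fixed window, with no measurement of binding.

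In rods most of the 43 genes stood lower in the Mettl14-cKO library. A gene was called when the ratio of CPM (Mettl14-cKO over control) was 0.8 or less, or the inverse of 0.8 or more, the exact Poisson intervals of the libraries did not overlap, and it had at least 30 UMIs over both libraries. Of the 42 members with enough UMIs in rods, 28 were called lower and 0 higher, where 19.0% of all 13354 genes tested in rods were called lower and 17.3% higher. The median log2 ratio of the 42 members was -0.50, and of all genes tested -0.05. At a 1.5-fold call 18 of 42 members were lower, against 9.07% of all genes. At a 2-fold call 3 were (Dynlrb2, Ccdc39 and Dync2li1), against 3.32%. Kif17, the homodimeric kinesin-2 motor, had 12 and 1 UMIs in rods and was not tested.

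**Figure D1:**
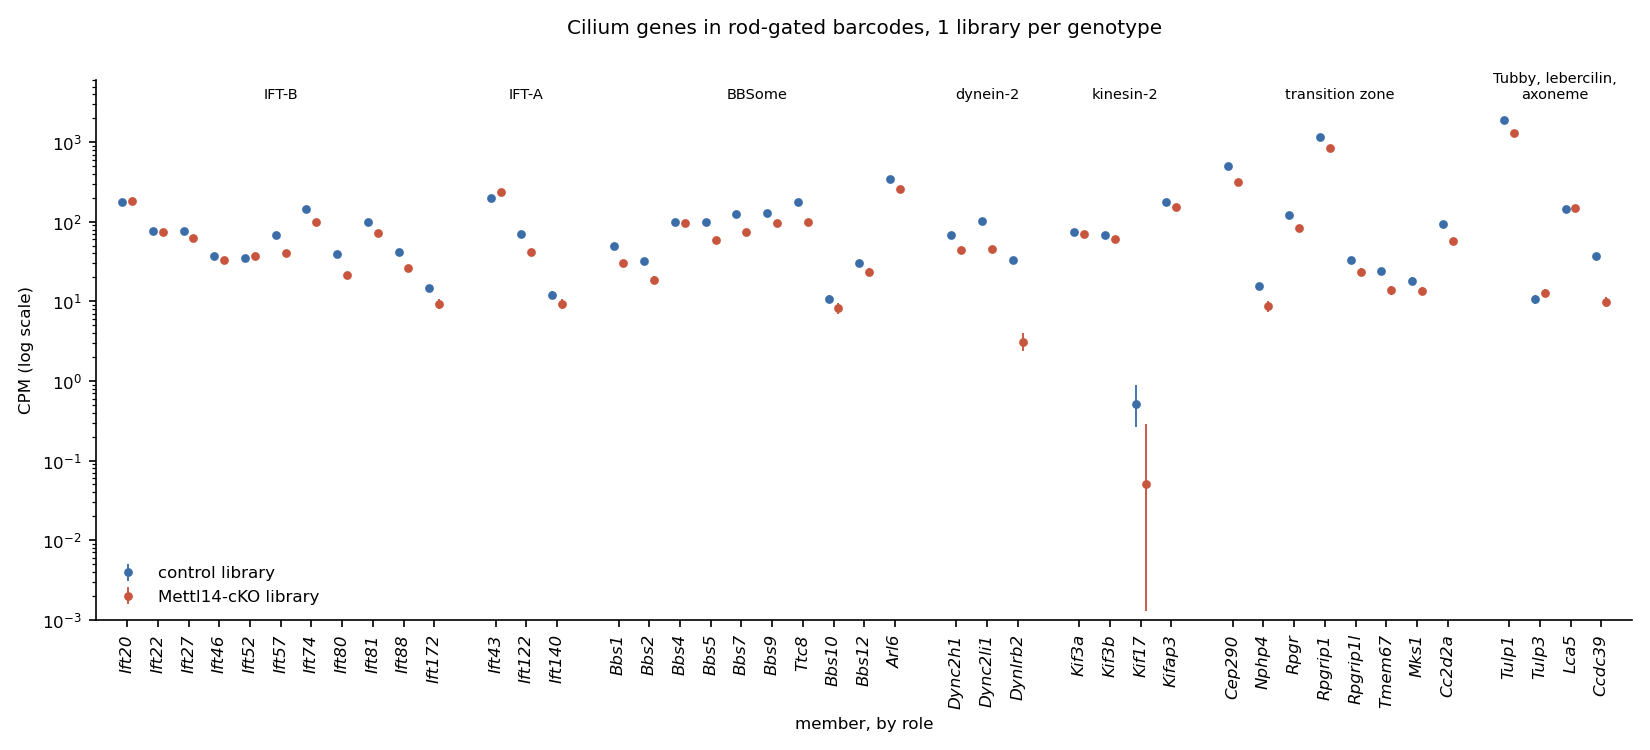
CPM on a log scale (y axis) of each of the 43 genes (x axis, by role) in rod-gated barcodes of the control (blue) and Mettl14-cKO (red) libraries; bars are exact 95% Poisson intervals. Dynlrb2 stands at 33.1 and 3.10 CPM, and the 3 tested kinesin-2 genes lie close together in the libraries.

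Several measures of the rod gate moved with these ratios. The 12 rod markers together stood at 17914 CPM in control and 11867 in Mettl14-cKO rods, with Gnat1 at 112 and 199 CPM. The median number of rod markers with a UMI was 8 in each library, at unequal median depths of 2544 and 2938 UMIs. Müller glia markers together stood at 393 and 860 CPM in the rod gate, and markers of neurogenic progenitors at 549 and 663. Mitochondrial genes made up 4.07% and 3.00% of UMIs, and ribosomal protein genes 9.37% and 11.2%. The part of these differences in the member ratios was not tested. Deep barcodes weigh more in summed UMIs: the 566 control and 485 Mettl14-cKO rods with over 10000 UMIs gave 43.2% and 44.3% of rod UMIs. With every cell thinned to 1500 UMIs, which leaves out 924 control and 558 Mettl14-cKO rods, 25 of 42 members were called lower, against 14.1% of all genes. At this equal depth the rod gates differed in makeup. In control 2379 of 3997 rods had 7 or more rod markers with a UMI, and in Mettl14-cKO 1369 of 3230. Within these, 19 of 42 members were lower and 1 higher (Ift43), against 9.58% and 9.52% of all genes. Within the 1618 control and 1861 Mettl14-cKO thinned rods with 6 or fewer, 19 of 42 were lower, against 10.5%.

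The dynein-2 genes had the lowest median log2 ratio of the 7 roles, -1.15 over 3 genes. Dynlrb2 (ENSMUSG00000034467, GRCm38 chromosome 8, 116504974 to 116515915, + strand) encodes a roadblock light chain of dynein. It had 783 UMIs in control rods and 61 in Mettl14-cKO rods, or 33.1 CPM (30.8 to 35.5) against 3.10 (2.37 to 3.99), a ratio of 0.0938 (0.0711 to 0.122) and a log2 ratio of -3.41. Across all settings tried, its log2 ratio in rods ran from -3.56 to -2.93. In rods thinned to 1500 UMIs, 5.23% of 3997 barcodes in the control (4.56% to 5.96%) and 0.526% of 3230 in the Mettl14-cKO library (0.307% to 0.841%) had a Dynlrb2 UMI; without thinning the shares were 13.4% and 1.53%. Müller glia, where the gene was near 0, gave 0.0987% and 0.121% of thinned cells at median depths of 3706 and 3428 UMIs, against 2544 and 2938 in rods. Its close relative Dynlrb1, which serves cytoplasmic dynein too, stood at 203 and 185 CPM in rods, a log2 ratio of -0.13, and was not called.

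Dync2li1, the light intermediate chain of dynein-2 (chromosome 17, 84626496 to 84655588, + strand), stood at 102 CPM in control and 46.2 in Mettl14-cKO rods, a ratio of 0.452 (0.418 to 0.488). The share of thinned rods with a Dync2li1 UMI was 14.9% and 6.69%. Dync2h1, the heavy chain that moves the motor, stood at 68.8 and 44.6 CPM, a ratio of 0.649 (0.597 to 0.705). All 3 dynein-2 members were thus lower in Mettl14-cKO rods, and none of their Poisson intervals overlapped between the libraries. Of all genes tested in rods 19.0% were called lower and 17.3% higher. Among 8 further genes of dynein-2 and the dynein light chains, 4 were called lower (Wdr60, 196 and 113 CPM, log2 -0.79; Tctex1d2, 59.2 and 36.3 CPM, log2 -0.71; Dynlt1a; Wdr34) and 1 higher (Dynll1, 994 and 1477 CPM, log2 0.57).

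No kinesin-2 gene was called in rods. Kif3a and Kif3b, the motor subunits that carry trains towards the tip, stood at 74.4 and 70.1 CPM and at 68.3 and 60.4 CPM in control and Mettl14-cKO rods, ratios of 0.942 (0.878 to 1.01) and 0.885 (0.820 to 0.954). Kifap3, which links the motor to its cargo, stood at 176 and 154 CPM, a ratio of 0.871 (0.831 to 0.913). None of the 3 reached the limit of a call.

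All 8 transition zone members were lower in Mettl14-cKO rods. Cep290, whose protein forms the links between microtubules and membrane at the base of the connecting cilium, stood at 509 CPM (500 to 518) in control and 312 (304 to 320) in Mettl14-cKO rods, a ratio of 0.613 (0.595 to 0.633). The share of thinned rods with a Cep290 UMI was 50.7% (49.2% to 52.3%) and 35.9% (34.3% to 37.6%), and that of Müller glia 5.82% and 6.07%. Rpgrip1, which anchors RPGR in the connecting cilium of photoreceptors, stood at 1155 and 842 CPM, a ratio of 0.729 (0.715 to 0.743). Rpgr itself stood at 122 and 83.9 CPM, a ratio of 0.689 (0.648 to 0.732).

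The Meckel and Joubert syndrome genes of the transition zone followed. Cc2d2a stood at 94.7 and 57.8 CPM, a ratio of 0.610 (0.567 to 0.655). Tmem67, a membrane receptor of the zone, stood at 24.3 and 13.7 CPM, a ratio of 0.565 (0.487 to 0.654). Rpgrip1l, a scaffold of the zone, stood at 33.3 and 23.7 CPM, a ratio of 0.713 (0.635 to 0.801). Mks1 stood at 18.2 and 13.5 CPM, a ratio of 0.742 (0.634 to 0.867), and the nephronophthisis gene Nphp4 at 15.6 and 8.70 CPM, a ratio of 0.558 (0.463 to 0.671). Mks1, Nphp4 and Rpgrip1l were no longer called after thinning (log2 -0.41, -0.57 and -0.36). The cause of these lost calls was not tested. In the thinned rods with 6 or fewer rod markers Mks1 stood at log2 0.06. Of 16 further transition zone genes, 6 were lower (lowest Tmem107, log2 -0.68, Tctn3, -0.64, and Tmem231, -0.63) and 1 was higher (B9d2, 54.3 and 81.4 CPM, log2 0.59). The shares of all genes tested in rods were 19.0% lower and 17.3% higher.

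Of the 10 genes of the BBSome and its assembly, 8 were lower. Ttc8 (also called Bbs8), a BBSome subunit with a known photoreceptor exon, stood at 180 and 100.3 CPM in control and Mettl14-cKO rods, a ratio of 0.557 (0.528 to 0.588), and 22.8% and 13.8% of thinned rods had a UMI of it. Bbs2 stood at 32.2 and 18.8 CPM, a ratio of 0.586 (0.516 to 0.664), and Bbs7, which sits beside it in the BBSome core, at 126 and 75.4 CPM, a ratio of 0.601 (0.564 to 0.640). Bbs5 stood at 99.6 and 58.6 CPM, a ratio of 0.589 (0.548 to 0.632). Bbs1, the subunit through which ARL6 recruits the coat, stood at 49.8 and 30.4 CPM, a ratio of 0.610 (0.552 to 0.674).

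The remaining members of this role had ratios nearer to 1. Arl6, the small GTPase that recruits the BBSome to membranes, stood at 350.1 and 259 CPM, a ratio of 0.739 (0.714 to 0.766), and Bbs9 at 129 and 95.9 CPM, a ratio of 0.746 (0.704 to 0.790). Bbs12, a chaperonin-like assembly factor, stood at 30.2 and 23.7 CPM, a ratio of 0.784 (0.696 to 0.883). Bbs4 stood at 98.6 and 95.3 CPM, with overlapping intervals, and Bbs10, the other assembly factor, at 10.7 and 8.19 CPM; neither was called. Bbs12 was no longer called when the ratios were centred on the median of all genes (log2 -0.31), after thinning (-0.30), in rods named from clusters (-0.27) or without barcodes with many cone markers (-0.29), and Bbs9 was not called in rods named from clusters (-0.30).

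The IFT complexes were uneven. Of the 11 IFT-B members 6 were lower: Ift80, 39.8 and 21.4 CPM, with a ratio of 0.537 (0.478 to 0.603); Ift57, 67.7 and 40.6 CPM, 0.599 (0.550 to 0.653); and Ift88, 42.3 and 26.1 CPM, 0.617 (0.554 to 0.687) among them. Ift172 stood at 14.6 and 9.21 CPM, a ratio of 0.632 (0.525 to 0.759). Ift74 and Ift81, whose proteins pair to bind tubulin, stood at 144 and 100.3 CPM and at 100.4 and 71.5 CPM, ratios of 0.698 (0.660 to 0.738) and 0.712 (0.666 to 0.761). The other 5 were not called: Ift20, which also acts at the Golgi, stood at 176 and 185 CPM, Ift22 at 76.8 and 75.3, Ift52 at 34.9 and 37.6, Ift46 at 36.7 and 32.8, and Ift27, a small GTPase, at 75.9 and 61.7.

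Of the 3 IFT-A members, which form the part of the train used for the return run and for entry of membrane proteins, only Ift122 was called, at 69.9 and 42 CPM and a ratio of 0.602 (0.553 to 0.655). Ift140 stood at 12.2 and 9.36 CPM with overlapping intervals. Ift43 stood higher in the Mettl14-cKO library, at 200 CPM (194 to 206) and 235 (228 to 242), intervals that do not overlap, but its ratio of 1.18 (1.13 to 1.23) did not reach the limit of a call. Of 11 further IFT genes 4 were lower (Wdr35, 65.6 and 38.7 CPM, log2 -0.76; Ttc26, -0.61; Wdr19, -0.61; Cluap1, -0.37) and 2 higher (Ttc21b, 27.9 and 41.6 CPM, log2 0.58, and Ttc30a2 with 9 and 32 UMIs). Ttc30a2 has near-identical copies, so its count is uncertain. Among all genes tested in rods 19.0% were called lower and 17.3% higher.

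Of the last 4 members, Tulp1 and Ccdc39 were lower. Tulp1, a photoreceptor gene needed for protein transport to the outer segment, stood at 1901 CPM (1883 to 1918) and 1320 (1304 to 1337), a ratio of 0.695 (0.684 to 0.705), and 90.8% and 80.1% of thinned rods had a UMI of it. Ccdc39 (chromosome 3, 33812362 to 33844310, - strand), known as a ruler of the axoneme of motile cilia, stood at 37.5 CPM (35.1 to 40.1) and 9.72 (8.39 to 11.2), a ratio of 0.259 (0.220 to 0.303); 6.28% and 1.52% of thinned rods had a UMI. Its partner Ccdc40 had 5 and 22 UMIs in rods and was not tested. Only 4 of 14 motile cilium genes had enough UMIs, with 0 lower and 1 higher (Tekt1, 17 and 40 UMIs). Over all genes tested in rods 19.0% were lower and 17.3% higher. Lca5, an IFT-associated protein of the axoneme, stood at 145 and 150.5 CPM, and Tulp3, the widely expressed Tubby protein that brings receptors into cilia with IFT-A, at 10.6 and 12.7 CPM; neither was called.

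**Figure D2:**
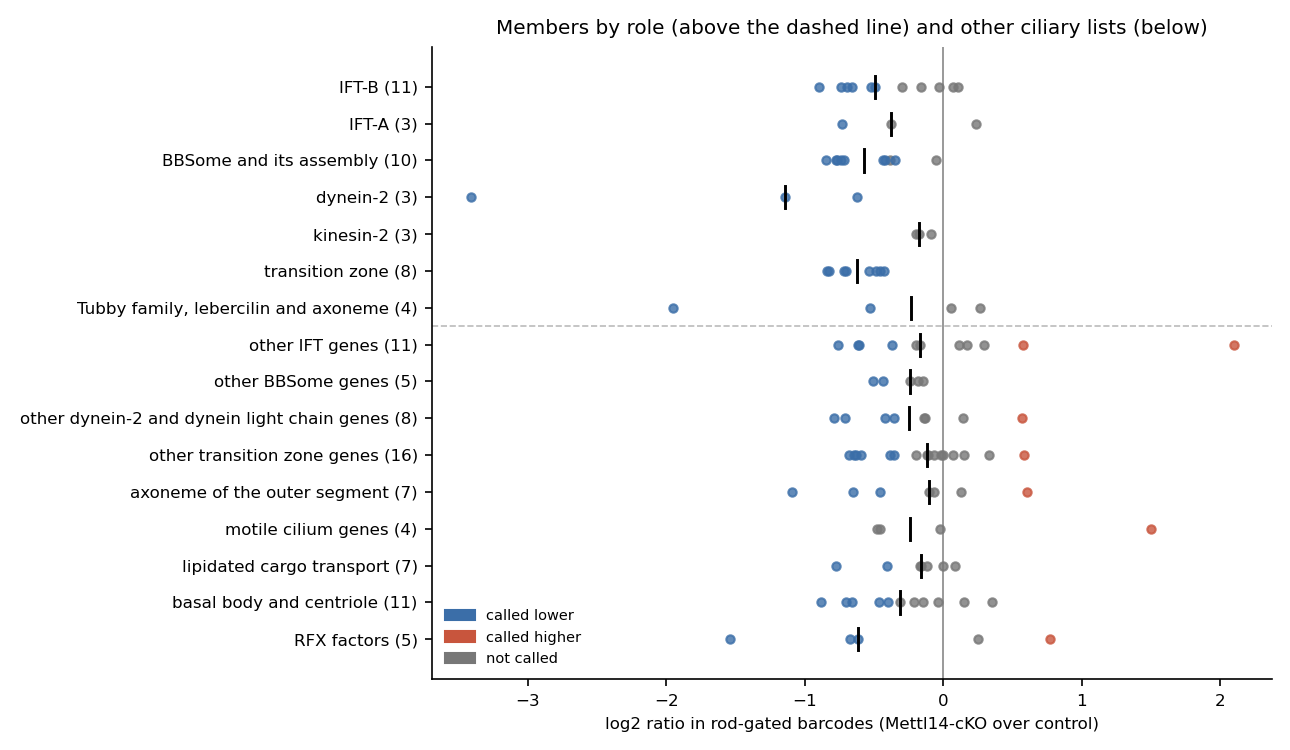
Log2 ratio in rod-gated barcodes (x axis) of each tested gene, for the 7 roles of the members (above the dashed line) and 9 other ciliary lists (below); black bars are medians, and the number of tested genes is in brackets. All 8 transition zone and all 3 dynein-2 members lie below 0, as do all 5 further genes listed with the BBSome, and the other 8 lists below the line hold genes on both sides.

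Genes of the basal body, the outer segment axoneme and cargo transport were read beside the members. Their counts stand beside 19.0% of all genes tested in rods called lower and 17.3% called higher. No list was tested against these shares. Of 5 further genes listed with the BBSome (Bbip1, Lztfl1, Mkks, Rabl6 and Cep19, not all of them BBSome genes) 2 were lower and 0 higher. The 2 were Mkks (log2 -0.51) and Lztfl1 (-0.43). Of 11 basal body genes 5 were lower (lowest Ofd1, 70.9 and 38.4 CPM, log2 -0.88, Cep89, -0.70, and Odf2, -0.66) and 0 higher. Of 7 genes of the outer segment axoneme 3 were lower (Pcare, 93.0 and 43.6 CPM, log2 -1.09; Ttll5, -0.65; Mak, -0.46), and Rp1, a microtubule protein of that axoneme, was higher at 2967 and 4512 CPM (log2 0.60). Of 7 genes listed for the transport of lipidated proteins to the cilium 2 were lower: Unc119 (log2 -0.41) and Tub (-0.77). Tub belongs to the Tubby family and is not itself a carrier of lipidated proteins. Among the RFX factors tested, 3 of 5 were lower (Rfx2, 84 and 24 UMIs, log2 -1.54; Rfx1, -0.67; Rfx3, -0.61) and 1 was higher (Rfx5, 82 and 116 UMIs, log2 0.77).

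Most members stood highest in rods. Over the 5 gated classes with at least 100 cells in each library (rod, bipolar, amacrine, Müller glia and ganglion), 23 of the 41 members with at least 100 UMIs in each library had their highest level in rods, apart from the next class by the Poisson intervals, in both libraries. That is 56.1% of them, against 12.2% of 11861 genes. In the control library the level in rods over that in the other 4 classes together was 23 for Tulp1, 20.2 for Dynlrb2, 17.4 for Rpgrip1, 8.43 for Bbs9 and 8.24 for Bbs5. Rod RNA in barcodes of the other classes enters these ratios. The rod gene Gngt1 stood in control bipolar barcodes at 4.68% of its rod level. That share of the rod level equals 84.1% of the Tulp1 found there, 109% of Dynlrb2, 59.8% of Rpgrip1, 33.5% of Bbs9 and 34.9% of Bbs5. The ratios were not corrected for it. Kif3a was highest in ganglion cells (275 and 290.3 CPM, against 74.4 and 70.1 in rods) and Tulp3 in Müller glia (100.3 and 97.8 CPM, against 10.6 and 12.7 in rods). Ccdc39 was highest in rods in the control (37.5 CPM, next amacrine cells with 26.7) and in amacrine cells in the Mettl14-cKO library (29 CPM, rods 9.72).

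**Figure D3:**
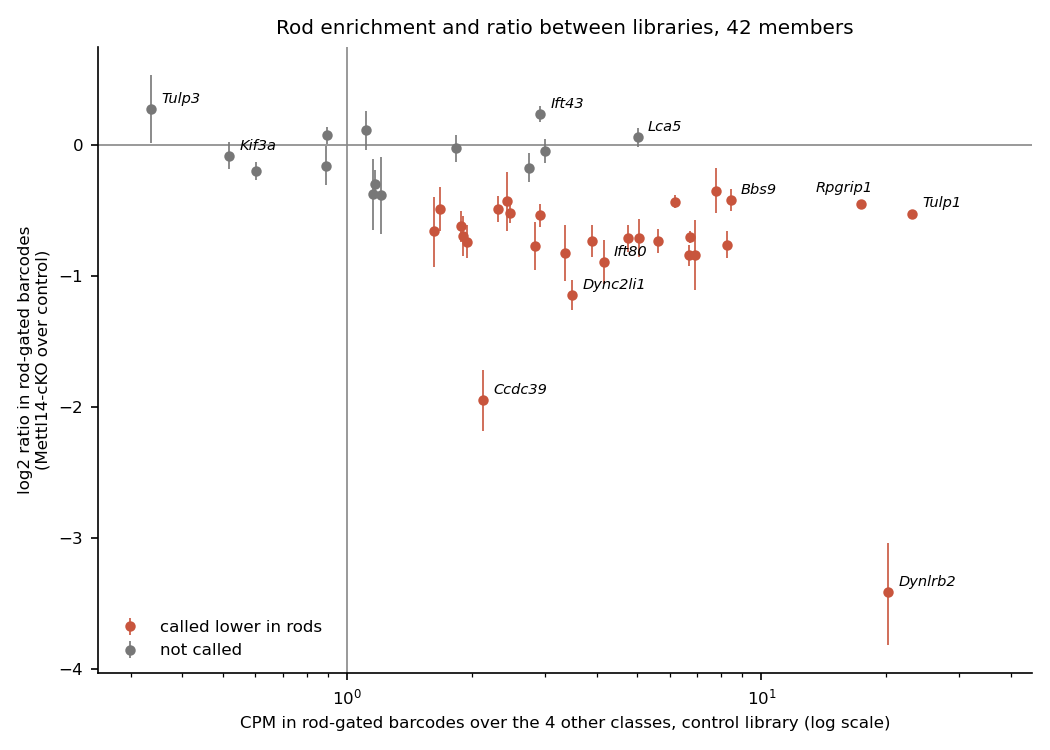
CPM in rod-gated barcodes over that in the other 4 classes in the control library (x axis, log scale) against the log2 ratio of Mettl14-cKO over control in rods (y axis) for the 42 tested members; bars are 95% intervals of the ratio, red points were called lower. Ccdc39 and Dynlrb2 lie far below the rest, and members at or under 1 on the x axis were not called; the control level in rods enters both axes, so no relation is read from the plot.

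In the 4 other gated classes with at least 100 cells in each library few members were called, and directions were mixed. Each call there was recomputed under 8 alternatives: a stricter gate, 2000 UMIs, the quality and doublet filter, both other scalings, thinning, 100 UMIs and clusters as classes. In bipolar cells 6 of 41 were lower and 2 higher, against 16.8% and 15.2% of all genes there, with a member median of -0.14. The lowest was Ccdc39 at 14.1 and 8.50 CPM, a ratio of 0.604 (0.434 to 0.832). The others lower were Bbs1, Tulp1, Bbs4, Dync2h1 and Kifap3, with log2 ratios of -0.70, -0.58, -0.51, -0.45 and -0.44. The highest was Ift43, at 63.2 and 89.6 CPM, a ratio of 1.42 (1.26 to 1.60), followed by Kif3b at 23.7 and 32.7 CPM. Ift43, Bbs4, Kifap3 and Tulp1 kept their call under all 8 alternatives, Ccdc39 under 7, Dync2h1 under 6, Kif3b under 5 and Bbs1 under 2.

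In amacrine cells 5 of 40 were lower and 1 higher, against 8.45% and 12.6% of all genes. Kifap3, at 491 and 336 CPM, had a ratio of 0.684 (0.645 to 0.725). Tulp1 (log2 -0.66), Dync2li1 (-0.61), Ift74 (-0.43) and Ift27 (-0.39) were also lower, and Lca5 was higher at 27.5 and 38.6 CPM. Kifap3, Tulp1 and Ift74 kept their call under all 8 alternatives, Dync2li1 under 7, and Ift27 and Lca5 under 5 each. Bbs9, at 13.9 and 8.55 CPM, had the lowest ratio of the members with at least 100 UMIs, 0.616 (0.426 to 0.889), but overlapping Poisson intervals.

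In Müller glia members were called in both directions. There 3 of 40 were lower and 4 higher, against 11.1% and 15.7% of all genes, and the member median was 0.03. Ift57 was lower at 71.9 and 46.6 CPM, a ratio of 0.649 (0.552 to 0.763), as were Bbs10 (38 and 27 UMIs, log2 -1.05) and Tulp1 (-0.44). Rpgrip1l was higher at 14.9 and 24.2 CPM, a ratio of 1.62 (1.21 to 2.20), while it was lower in rods. Dync2h1, also lower in rods, was higher at 27.8 and 39.6 CPM, a ratio of 1.43 (1.14 to 1.79), and Ift22 and Lca5 were higher with log2 ratios of 0.50 and 0.48. Only Ift57 kept its call under all 8 alternatives. Dync2h1 and Tulp1 kept theirs under 7, Rpgrip1l and Ift22 under 6, Lca5 under 3 and Bbs10 under 1, so which members were called in Müller glia changed with the setting. Müller markers together stood at 20222 CPM in control and 11146 in Mettl14-cKO glia, and the part of that in these ratios was not tested.

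In ganglion cells 2 of 35 members were lower and 0 higher, against 3.60% and 4.95% of all genes. Kifap3 stood at 485 and 347 CPM, a ratio of 0.714 (0.651 to 0.784), and Ift74 at 42.2 and 25.4 CPM, a ratio of 0.601 (0.426 to 0.844). Kifap3 kept its call under 7 of the 8 alternatives and Ift74 under 4; thinning left only 4 members with enough UMIs. Rpgrip1l had the highest ratio there, 1.65 (1.09 to 2.55), with overlapping Poisson intervals. Kifap3 was thus called lower in bipolar, amacrine and ganglion cells and not in rods, where its ratio was 0.871; the difference between classes was not tested. Ift74 was called lower in rods, amacrine and ganglion cells.

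In the 2211 and 3791 ungated barcodes, a mixture that no class could claim, 21 of 42 members were lower and 1 higher (Ift52, 31.5 and 39.7 CPM), against 18.7% and 13.5% of all genes, with a member median of -0.42. Dynlrb2 was again lowest at 7.85 and 0.883 CPM, and Tulp1 stood at 509 and 237 CPM. Rod markers together stood at 4020 CPM in control and 1647 in Mettl14-cKO ungated barcodes, and their part in these ratios was not tested. Thinned to 1500 UMIs, 7 of 40 members were lower, against 12.1% of all genes. The member median was then -0.20, and that of all genes -0.05.

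**Figure D4:**
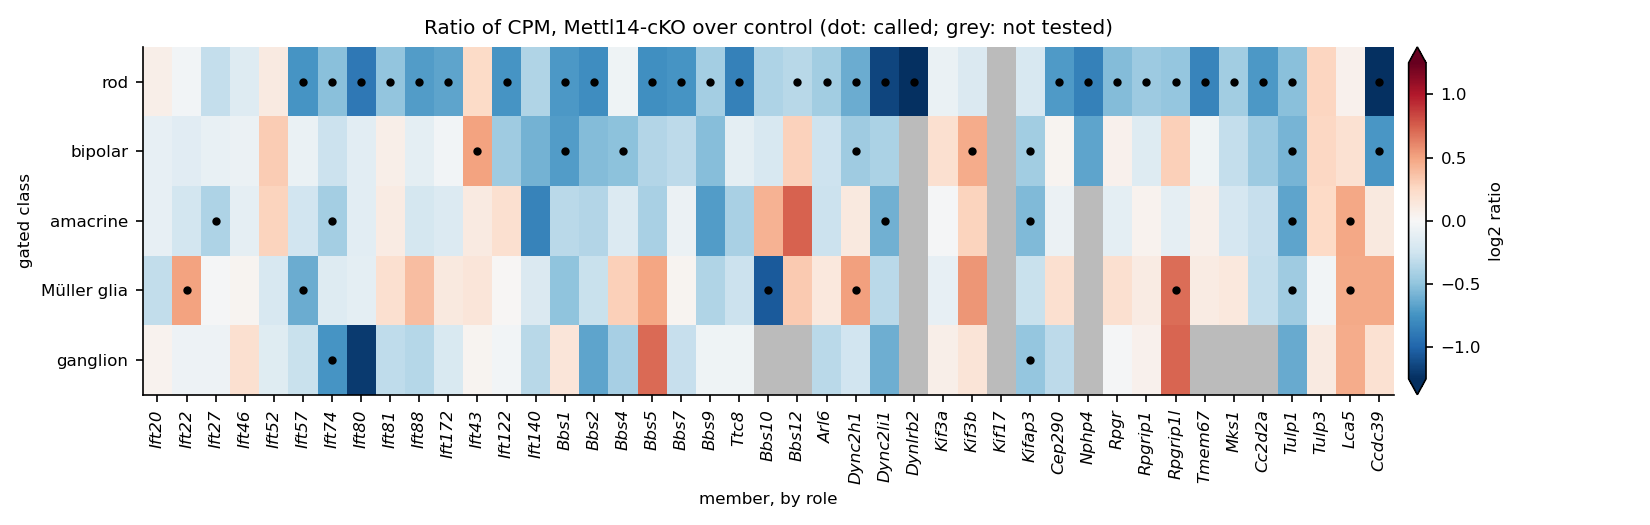
Log2 ratio of CPM, Mettl14-cKO over control (colour, its scale cut at both ends), for the 43 members (x axis, by role) in 5 gated classes (y axis); dots mark called members and grey marks too few UMIs. The rod row holds 28 dots, all on the lower side, and the other rows hold 2 to 8.

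Tulp1 was called lower in 4 of these 5 classes, all but ganglion cells, and it is a photoreceptor gene whose RNA, freed from broken rods, can enter other droplets. Gngt1, a rod transducin subunit, stood in bipolar barcodes at 4.68% (control) and 3.45% (Mettl14-cKO) of its rod level. The same shares of the rod Tulp1 level are 89.0 and 45.6 CPM, and 106 and 70.7 CPM were found. In amacrine cells such shares gave 58.7 and 37.6 CPM where 64.2 and 40.6 were found, and in Müller glia 78.9 and 51.4 where 80.1 and 59.0 were found. No change of Tulp1 outside rods is read from these values. For Kifap3 in amacrine cells the same shares gave 5.45 and 4.38 CPM of 491 and 336 found, and for Ift74 4.44 and 2.86 of 51.8 and 38.5. Other called members had larger parts: Bbs1 in bipolar cells 18.4% and 13.5%, and Lca5 in Müller glia 24.2% and 17.0% of the level found. Such shares do not separate free RNA from doublets, and the source of rod RNA in these barcodes was not tested.

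Cones could not be described on their own. In the 28 and 54 cone-gated barcodes 11 members had enough UMIs and 1 was called, where 2.06% of all genes were lower and 3.01% higher: Rpgrip1, lower, at 552 and 304 CPM, a ratio of 0.551 (0.380 to 0.802). A wider gate of at least 5 cone markers, added after the data were seen, held 500 and 477 barcodes, of which 337 and 330 were also in the rod gate. Their median depth was 11674 and 10674 UMIs, and their rod markers stood at the level of rods, 17491 and 11817 CPM, so they are photoreceptor barcodes rich in cone RNA and not cones alone. In them 26 of 42 members were lower and 0 higher, against 15.5% and 13.5% of all genes, with Dynlrb2 again lowest at 32.0 and 2.16 CPM; thinned to 1500 UMIs, 5 of the 33 members that still had enough UMIs were lower, against 4.60% of all genes. Nothing about cones is read from these barcodes. Leaving them out of the rod gate left 28 members lower in rods (18.5% of all genes), 27 of them the same genes.

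Summed over all kept barcodes, the 43 genes made up 0.416% (control) and 0.285% (Mettl14-cKO) of UMIs. Rods made up 43.1% (42.2% to 44.0%) of control and 28.1% (27.3% to 28.8%) of Mettl14-cKO barcodes, and in such sums fewer cells of a type and less RNA per cell cannot be told apart. Of the 43 members 29 were lower and 1 higher, against 18.6% and 19.5% of 16164 genes. The member that was higher was Tulp3, at 19.4 and 25.7 CPM, a ratio of 1.33 (1.22 to 1.44). Weighted so that every class has its control share, 28 members were lower and 0 higher, against 20.3% and 15.7% of all genes. Tulp3 then stood at 21.5 and 24.0 CPM.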

How the data were processed

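The deposited files hold raw counts of UMIs per gene and barcode; the submitters' processing notes name Cell Ranger 6.1.1 and the build mm10 for the authors' steps, and the annotation is not given in the sources used here. Kept barcodes had at least 1000 UMIs. The 13 classes were gated by 128 markers, and UMIs were summed per library and class, divided by the class total (CPM), and compared as ratios with exact conditional binomial intervals; levels have exact Poisson intervals and shares Clopper-Pearson intervals, all at 95%. No count model was used, since each genotype has 1 library. The comparison was tested on simulated counts with known changes.

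Doublets stayed in. Scrublet marked 6.92% and 12.0% of kept barcodes with at least 500 genes and at most 15% mitochondrial UMIs, and an alternative removed them. Clustering was by Leiden (scanpy 1.11.5, igraph 0.11.9, resolution 1, 2000 variable genes, 30 principal components, 20 neighbours). Values were computed with Python 3.11.15, numpy 2.4.6, scipy 1.17.1 and pandas 2.3.3, and drawn with matplotlib 3.10.9. Positions come from GENCODE on GRCm38, matched by gene identifier. Genes named with values are members called in rods or cones, called the same way in at least 3 classes, or highest or lowest in a class among those with at least 100 UMIs, and of other lists up to 3 called genes in each direction with at least 100 UMIs in rods; Wdr34, Dynlrb1, Cluap1, Ttc30a2, Ccdc40, Tekt1, the rod markers and the members that were not called in rods were given values after these were seen. The 9 other lists held 87 symbols, of which 85 were found. The driver of Cre and 1 rod marker are not reported here. The members, lists and gates were chosen with earlier results of these data known. The alternatives tried were a stricter gate (4 markers, lead of 3), 2000 UMIs, a filter on genes, mitochondrial share and doublets, 2 other scalings, thinning, calls at 1.5- and 2-fold, 100 UMIs, clusters as classes and class weighting.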

Additional observations from a re-analysis of the deposited data

How the results depend on the processing

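In rods 28 members were lower as reported. Stricter gates, 2000 UMIs, the quality and doublet filter, both other scalings, thinning, 100 UMIs, clusters as classes, and (chosen after the data were seen) leaving out shared or cone-rich barcodes gave 25 to 30 lower and 0 higher. Of all genes, 14.1% to 20.9% were lower and 12.5% to 19.5% higher under these settings. At 1.5- and 2-fold calls 18 and 3 were lower in rods (9.07% and 3.32% of all genes). Over all barcodes 18 and 2 were lower (9.39% and 3.9%) and 0 higher at either (11.7% and 5.52%). Bipolar cells had 2 and 0 lower (9.98% and 4.47%), and amacrine cells 2 and 0 (4.16% and 1.89%). At both calls 0 were higher in bipolar (10.2% and 4.56%) and in amacrine cells (7.65% and 2.82%). Ganglion cells had 1 and 0 lower (1.93% and 0.79%). In Müller glia 1 and 0 were higher (11% and 5.23%), with 1 lower at 2-fold (3%). Cone-rich barcodes had 4 lower at 2-fold (2.39%). Thinning gave 0 of 42 higher over all barcodes (17.4% of all genes) and 5 of 33 tested lower in cone-rich barcodes (4.60%). It gave 3 of 38 lower in bipolar (11.3%), 3 of 37 in amacrine (6.1%) and 0 of 4 in ganglion cells (1.41%). Thinned amacrine cells had 0 higher (8.17%), and thinned Müller glia 2 of 37 (10.7%). Class weighting gave 0 higher over all barcodes (15.7%). The stricter gate gave 1 higher in bipolar (14.2% of all genes), 0 in amacrine (11.5%), 2 in Müller glia (15.4%) and 1 lower in ganglion cells (3.32%). With 2000 UMIs 0 were higher in amacrine (11.9%) and 1 lower in ganglion cells (3.58%). The quality filter gave 1 higher in cone-rich barcodes (12.1%), and 1 lower (3.61%) and 1 higher (4.82%) in ganglion cells. Centring gave 1 higher in cone-rich barcodes (15.7%) and 6 lower in Müller glia (13.7%). Clusters as classes gave 1 higher in bipolar cells (15.9%) and 2 in Müller glia (16.3%). In Müller glia the stricter gate kept 1 of the 3 genes called lower and 2 of the 4 called higher, thinning 2 and 1, and clusters 2 and 2. In ungated barcodes 21 were lower and 1 higher, and the alternatives there were chosen after the data were seen. Calls at 1.5- and 2-fold left 13 and 3 lower (10.5% and 4.72% of all genes) and 0 higher (8.05% and 3.27%). Thinning left 7 of 40 lower (12.1%) and 0 higher (10.3%), with Cc2d2a turned to log2 0.095. The quality filter and centring gave 3 higher each (12.9% and 16.9%), and scaling without mitochondrial and ribosomal genes 2 (15.1%). In thinned rods with 7 or more rod markers 1 was higher, and in those with 6 or fewer Mks1 turned to log2 0.061; thinning turned Bbs2 in cone-rich barcodes to log2 0.19. The cause of these moves was not tested, except that thinning leaves fewer UMIs. No paired analysis was possible because each genotype has 1 library. Replicates could not be left out for the same reason. Members with few UMIs in bipolar, amacrine, Müller and ganglion barcodes, such as Dynlrb2 and Kif17, could not be judged at this depth.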
